A study of Mus musculus with 7 samples.

Results

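MHC class II genes and the gene of their chaperone, Cd74, were followed in RNA of splenic CD4+CD25+ cells from aged and young mice. The 10 genes (H2-Aa, H2-Ab1, H2-Eb1, H2-Eb2, H2-DMa, H2-DMb1, H2-DMb2, H2-Oa, H2-Ob and Cd74) were taken as a named gene family, by their symbols and not by a threshold on their values (though with earlier results of these data known), from the 25469 genes of the deposited series table, and all 10 passed the filter on low counts that left 13904 genes for testing. The study asked how age changes regulatory T cells (Tregs), the CD4+ T cells that restrain immune responses. The aged group held 3 libraries from wild-type mice of 18 months and the young group 4 libraries from wild-type mice of 8 weeks by the sample labels (the study's methods give another age in weeks for its young mice), all male C57BL/6 by the methods, and every library is labelled as a biological replicate. Cells were taken from the spleen with magnetic beads for CD4 and CD25, without a treatment named for these samples, and whether animals were pooled is not given in the sources used here.

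Class II molecules are pairs of an alpha and a beta chain that carry peptides from the endosome to the cell surface, where CD4+ T cells read them. The invariant chain (Cd74) guards the groove of a new pair, DM (H2-DMa with H2-DMb1 or H2-DMb2) exchanges its remnant for antigen peptide, and DO (H2-Oa with H2-Ob) restrains DM. In the mouse spleen these genes are known as products of B cells, dendritic cells and macrophages, while resting mouse T cells make little of them.

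Class II genes are known to be switched on through a shared promoter module of an X box, bound by the RFX complex, and a Y box, bound by NF-Y, on which the coactivator CIITA assembles. RefSeq starts on GRCm38.p6 gave a window of 250 bases before to 50 bases after the start for 8 of the 10 genes. H2-Ab1 and Cd74 had no window and were not searched. The Y box CTGATTGG, searched on both strands, was in 4 of them (H2-Aa, H2-Eb1, H2-Eb2 and H2-Oa) and in 4.10% of all 32851 windows. Its core ATTGG, which every CTGATTGG contains, was in all 8 and in 37.4% of all windows. An X box written as CC, any 2 bases, G, any 2 bases, AC, any 2 bases and ATG was in H2-DMb1 and H2-Ob and in 0.749% of all windows. The pattern is strict: the stretches of H2-Eb1 and H2-Eb2 below each hold a run that differs from it at the first base only. Such runs were not counted or put in capitals, so a gene without a match is not shown to lack an X box. The stretches below run from 150 to 11 bases before the start, in the direction of transcription, and were chosen because they show the Y box in the 3 classical chains that hold it and an X box in H2-Ob, the gene found in the most pairs whose ratio separated the ages. Capitals mark the Y box in H2-Aa (minus strand, chr17:34287834-34287973), H2-Eb1 (plus strand, chr17:34305717-34305856) and H2-Eb2 (plus strand, chr17:34325525-34325664) and the X box in H2-Ob (plus strand, chr17:34238755-34238894).
H2-Aa: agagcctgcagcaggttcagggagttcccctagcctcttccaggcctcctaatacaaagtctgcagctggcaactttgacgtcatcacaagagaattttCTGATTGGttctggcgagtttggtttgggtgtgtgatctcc
H2-Eb1: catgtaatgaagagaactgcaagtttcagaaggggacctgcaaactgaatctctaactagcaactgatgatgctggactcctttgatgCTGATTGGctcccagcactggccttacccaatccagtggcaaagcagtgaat
H2-Eb2: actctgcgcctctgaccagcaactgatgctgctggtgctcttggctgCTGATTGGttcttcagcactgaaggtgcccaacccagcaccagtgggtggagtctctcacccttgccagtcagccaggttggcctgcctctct
H2-Ob: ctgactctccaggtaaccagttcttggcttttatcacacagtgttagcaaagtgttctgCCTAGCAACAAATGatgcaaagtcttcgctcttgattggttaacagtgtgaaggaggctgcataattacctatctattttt
Counted from the start, the Y box lies at -51 to -44 in H2-Aa, at -62 to -55 in H2-Eb1 and at -103 to -96 in H2-Eb2, and the X box of H2-Ob at -91 to -78, with an ATTGG at -57 to -53. The letters are a description of the windows and show no binding.

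Gene counts came to between 10734234 and 13649310 per library. At the threshold of an adjusted P value under 0.05 (edgeR), 2327 of the 13904 genes were DEGs, which is 16.7%, with 1362 higher and 965 lower in aged isolates. With the trends of GC content and gene length taken out, the split was 1170 higher and 1529 lower. Foxp3, the defining factor of Tregs, was read at 394 to 622 CPM (read counts scaled to library size) in every library, Cd4 at 434 to 633 CPM and Il2ra (CD25) at 327 to 684 CPM, and none of the 3 was a DEG. Of the list of 10 Treg markers, 2 were lower (Gpr83 and Lrrc32), 0 were higher and 6 had an unadjusted P value under 0.05 (32.7% of all genes tested did), and of 6 T cell markers 1 was higher (Cd3e). Aged replicate 1 stood apart in neutrophil markers, with 4650.0 CPM summed over 10 genes against 247 to 1747 CPM in the other libraries, and 5 of these 10 markers were higher in aged isolates.

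Class II genes did not separate aged from young Treg isolates. None of the 10 was a DEG, and the values of the ages overlapped in every one, while the 3 aged libraries differed among themselves by up to 3.08-fold (H2-DMb1). In 9 genes aged replicate 1 was the lowest and aged replicate 3 the highest of the aged libraries under each scaling tried, and in H2-Eb2 aged replicates 1 and 2 were level. Values are CPM, scaled by TMM, and are given as mean ± SD with n = 3 aged and n = 4 young.

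The classical chains form the peptide-binding pairs at the cell surface. H2-Aa encodes the alpha chain of I-A (ENSMUSG00000036594, chr17:34282744-34287823), and was read at 544, 874 and 1307 CPM in aged replicates 1, 2 and 3 and at 812, 767, 686 and 918 CPM in young replicates 1 to 4. The young libraries lie between the lowest and the highest aged library. The means of H2-Aa were 908 ± 382 CPM and 796 ± 96.6 CPM, a log2 fold change (aged over young) of 0.19 with a standard error of 0.26 (adjusted P = 0.662, edgeR). Its partner in I-A, the beta chain H2-Ab1 (ENSMUSG00000073421, chr17:34257689-34269419), had 303, 492 and 712 CPM in aged and 550.2, 472, 426 and 659 CPM in young isolates. Aged replicate 1 was again below every other library and aged replicate 3 above. The H2-Ab1 difference was -0.07 on the log2 scale with a standard error of 0.27 (adjusted P = 0.897, edgeR).

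H2-Eb1 encodes the beta chain of I-E (ENSMUSG00000060586, chr17:34305867-34316674). It had 392.1, 559 and 805 CPM in aged and 560.5, 471, 426 and 665 CPM in young isolates, with a log2 fold change of 0.14 and a standard error of 0.25 (adjusted P = 0.740, edgeR). H2-Eb2 is a second E beta gene (ENSMUSG00000067341, chr17:34325665-34341412). It had 23.2, 23.3 and 33.9 CPM in aged and 23.2, 23.3, 19.0 and 27.2 CPM in young isolates, so that only aged replicate 3 lay outside the young range. The test gave H2-Eb2 a log2 fold change of 0.21 with a standard error of 0.18 (adjusted P = 0.459, edgeR). The I-E alpha gene, which C57BL/6 mice carry in a defective form, is listed as H2-Ea-ps, had 0 to 4 reads per library and was not tested.

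**Figure D1:**
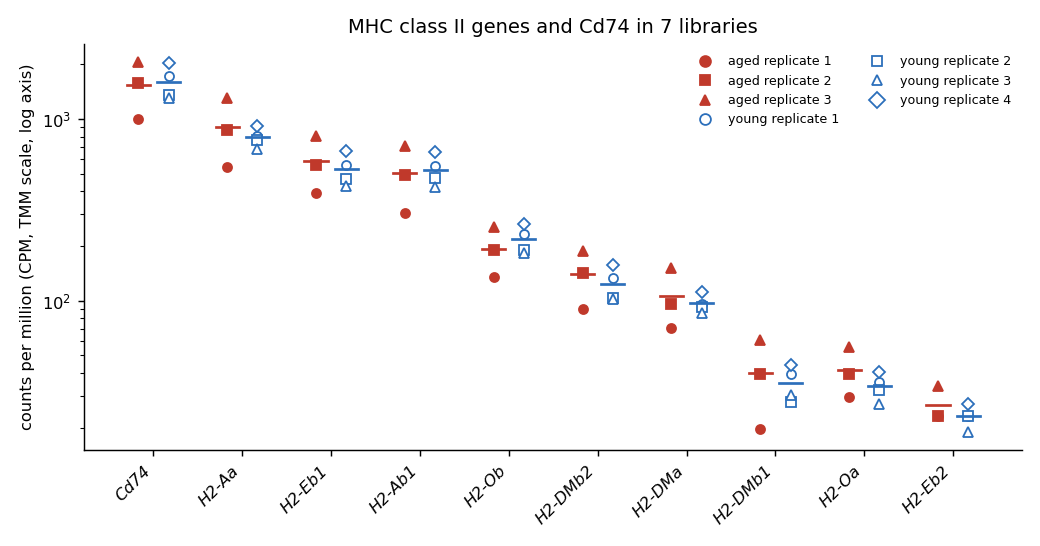
CPM (TMM scale, log axis) of each of the 10 genes in the 3 aged (filled red) and 4 young (open blue) libraries, with the shape giving the replicate and the short line the mean of an age. Aged replicate 3 (triangle) is the highest of the aged points in each gene and aged replicate 1 (circle) the lowest, save in H2-Eb2, where aged replicates 1 and 2 are level, and the young points overlap them.

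DM loads peptide in the endosome. H2-DMa, its alpha chain (ENSMUSG00000037649, chr17:34119541-34139101), had 70.9, 95.8 and 152 CPM in aged and 96.3, 92.5, 85.6 and 112 CPM in young isolates. The young values lie inside the aged range, and the log2 fold change was 0.14 with a standard error of 0.23 (adjusted P = 0.727, edgeR). H2-DMb1, a DM beta chain (ENSMUSG00000079547, chr17:34153072-34160230), was the gene with the widest aged spread, at 19.7, 39.3 and 60.5 CPM, against 39.5, 27.5, 30.2 and 44.3 CPM in young isolates. The estimate for H2-DMb1 was a log2 fold change of 0.17 with a standard error of 0.34 (adjusted P = 0.771, edgeR), the least precise of the 10. H2-DMb2, the other DM beta chain (ENSMUSG00000037548, chr17:34143307-34151555), had 89.6, 143 and 188 CPM in aged and 133, 103, 102 and 157 CPM in young isolates. The H2-DMb2 log2 fold change was 0.17 with a standard error of 0.25 (adjusted P = 0.678, edgeR). H2-DMa shares 360 of its exon bases with Brd2, and reads that touch both genes can be lost from either count.

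DO restrains DM and is known above all from B cells. Its alpha chain H2-Oa (ENSMUSG00000024334, chr17:34092340-34095234) had 29.4, 39.7 and 55.8 CPM in aged and 35.9, 32.2, 27.2 and 40.4 CPM in young isolates. The means were 41.6 ± 13.3 CPM and 33.9 ± 5.62 CPM, and the log2 fold change of 0.29, with a standard error of 0.22, was the largest of the 10 and did not pass the test (adjusted P = 0.391, edgeR). H2-Ob, the DO beta chain (ENSMUSG00000041538, chr17:34238903-34254414), had 134, 189.7 and 256 CPM in aged and 234, 192, 184 and 265 CPM in young isolates. Here the highest library was young replicate 4, not aged replicate 3. The difference of H2-Ob was -0.18 on the log2 scale with a standard error of 0.22 (adjusted P = 0.626, edgeR). H2-Oa shares 22.8% of its exon bases with BC051537, the largest share of exon length among the 10 genes.

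Cd74 gave the most reads of the 10. It had 997, 1590.2 and 2052 CPM in aged and 1729, 1362, 1301 and 2045 CPM in young isolates. The means were 1546 ± 529 CPM and 1609 ± 347 CPM, with a log2 difference of -0.06 and a standard error of 0.26 (adjusted P = 0.907, edgeR). Cd74 (ENSMUSG00000024610) lies on chromosome 18, away from the other 9 genes. As in most of these, its lowest library was aged replicate 1 and its highest aged replicate 3. For Cd74, young replicate 4 was nearly level with aged replicate 3, and which of them is highest depends on the scaling.

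**Figure D2:**
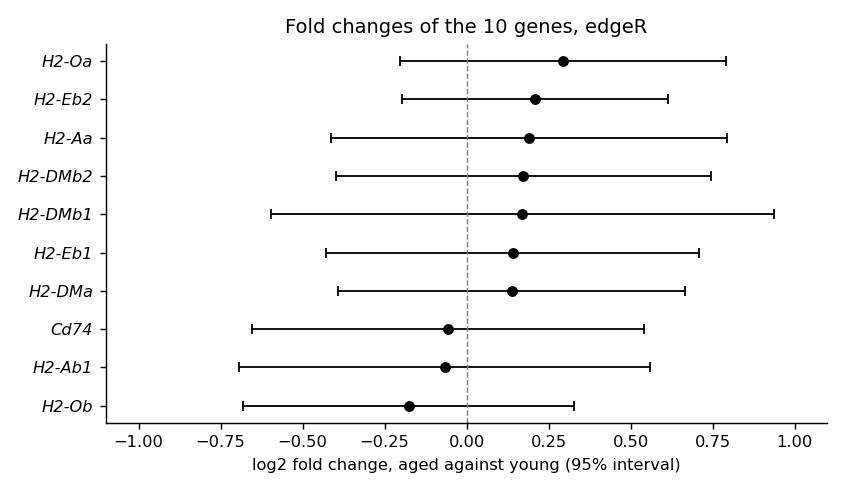
Log2 fold change of each of the 10 genes, aged over young, with its 95% interval (edgeR, n = 3 aged and 4 young). Every interval crosses 0, the dashed line, with H2-Oa highest at 0.29 and H2-Ob lowest at -0.18.

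Of the 10 genes, 0 were DEGs by edgeR against 16.7% of all genes tested, 0 had an unadjusted P value under 0.05 against 32.7% of all genes, and DESeq2 and limma voom also called 0. Also, 0 of 10 had aged and young CPM that did not overlap, against 29.9% of all genes tested. Their median log2 fold change was 0.16, beside 0.02 over all genes, and 7 of the 10 values were positive. The median depended on single libraries and on processing: without aged replicate 3 it was -0.19, without aged replicate 1 it was 0.36, and with GC content and gene length trends removed it was -0.027, with 0 of the 10 called each time. Only H2-Eb2 and H2-Oa stayed positive in all 16 alternative fits. A P value over the threshold does not show that the ages are alike: the 95% intervals still hold differences as large as 0.94 (H2-DMb1), 0.79 (H2-Oa and H2-Aa) and -0.69 (H2-Ab1) on the log2 scale. In RNA of a bulk isolate, fewer cells of a type and less RNA per cell cannot be told apart.

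The spread lay within the ages. The ratio of the highest to the lowest aged library ran from 1.46 (H2-Eb2) to 3.08 (H2-DMb1), and that of the young libraries from 1.31 to 1.61. Aged replicate 1 was the lowest of all 7 libraries in 8 genes, and aged replicate 3 the highest of all 7 in 9 on the TMM scale, among them Cd74, where young replicate 4 was nearly level. Among the young, replicate 4 was the highest in all 10. Over all genes tested, 16.9% had aged replicate 1 lowest and aged replicate 3 highest of the aged, whereas 9 class II genes (H2-Eb2 left out as level), 9 of 12 B cell markers, 8 of 17 monocyte and macrophage markers and 3 of 8 conventional dendritic cell markers did. Scaled by library size only, the share was 13.2% over all genes and the counts were 9 class II genes and 6 B cell markers. The 10 genes together took 0.271%, 0.357% and 0.560% of the gene counts of the aged libraries and 0.398%, 0.370%, 0.346% and 0.514% of those of the young.

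Levels of different genes were compared per kilobase of exon. The length was the union of exons over all annotated transcripts of a gene, and the order depends on it. Cd74 had a median of 947 CPM per kilobase over the 7 libraries, H2-Eb1 287, H2-Aa 214 and H2-Ab1 192. The lowest library of Cd74 was above the highest of every other class II gene. H2-Eb1 was above H2-Aa in all 7 libraries although their ranges overlap, whereas H2-Aa was above H2-Ab1 in 5 of 7. By read counts the order of the first pair was the reverse, with 1.38 to 1.63 H2-Aa reads per H2-Eb1 read. Their exon unions were 3798 bases for H2-Aa and 1944 for H2-Eb1, so which of these 2 is higher rests on the length used. H2-DMb2 followed at 76.2 CPM per kilobase, with no overlap to H2-Ab1 above or H2-Ob below. H2-Ob (35.6), H2-DMa (27.8), H2-Oa (25.5) and H2-DMb1 (23.4) had overlapping ranges, and H2-DMa was above H2-Oa in only 5 libraries. H2-Eb2 was the lowest at 6.86 CPM per kilobase, below H2-DMb1 in every library.

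The makeup of class II reads does not depend on how libraries are scaled, but shares of 1 total are tied to each other. They are given as a description. Of the 10 shares, 5 did not overlap between the ages, and of 9416 other well-read genes set against the class II sum 5.14% did not, which is not like for like, since the 10 genes are part of that sum. Cd74 took 38.0% ± 1.43 of the reads of the 10 genes in aged and 40.1% ± 1.38 in young isolates, with overlap, and H2-Aa 21.9% ± 1.21 and 20.1% ± 1.41, also with overlap. The shares of H2-Ab1 (12.2% ± 0.517 in aged, 13.2% ± 0.197 in young) and of H2-Ob (4.80% ± 0.319 and 5.48% ± 0.110) were lower in every aged library than in any young one. The shares of H2-Eb1 (14.4% ± 0.630 and 13.3% ± 0.215), H2-DMb2 (3.43% ± 0.0947 and 3.10% ± 0.120) and H2-Oa (1.03% ± 0.0835 and 0.852% ± 0.0412) were higher in every aged library. H2-DMa (2.598% and 2.44%), H2-DMb1 (0.934% and 0.883%) and H2-Eb2 (0.690% and 0.584%) overlapped.

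Within a library, the ratio of 2 of the genes can be compared between ages without a scale. Of the 45 pairs, 14 (31.1%) had ratios that did not overlap between the ages, beside 29.4% of the pairs among 9426 well-read genes, so that the share of such pairs is near the background. H2-Ob was in 6 of the 14, and H2-Oa, H2-Ab1 and H2-Eb1 were in 4 each. The ratio of the DO chains, H2-Oa to H2-Ob, was 0.219, 0.209 and 0.218 in aged and 0.153, 0.168, 0.148 and 0.153 in young isolates. This was the largest of the 14, at 1.38-fold between the means. It and the next pairs were picked after the ratios were seen and are a description. H2-Ab1 to H2-Eb1 stood at 0.773, 0.881 and 0.886 in aged and at 0.982, 1.00, 0.998 and 0.990 in young isolates, closely held among the young libraries. H2-DMb2 to Cd74 was 0.0898, 0.0897 and 0.0914 in aged and 0.0770, 0.0760, 0.0787 and 0.0769 in young isolates. All 14 pairs kept their direction without the trends of GC content and gene length, and the log2 difference of H2-Oa to H2-Ob went from 0.47 to 0.32. In that fit it was no longer the largest, since H2-Oa to Cd74 stood at 0.34.

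**Figure D3:**
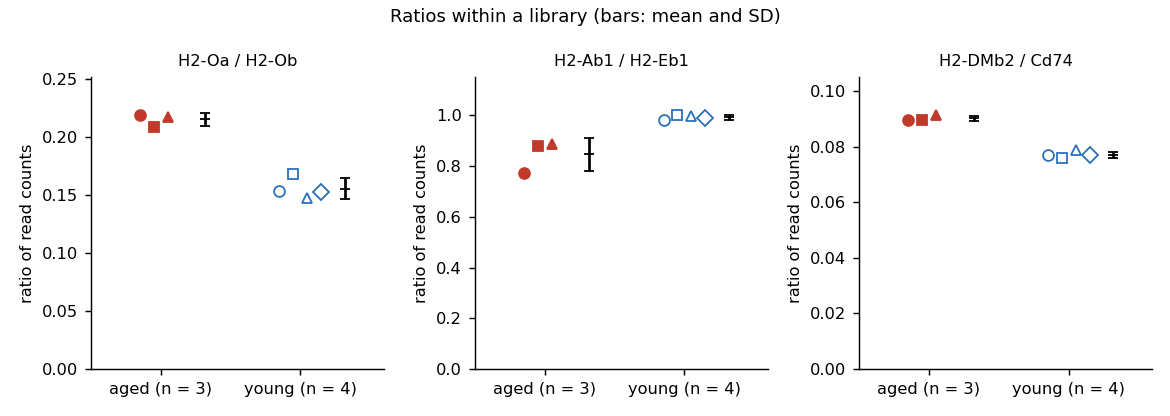
Ratio of read counts within a library for H2-Oa to H2-Ob, H2-Ab1 to H2-Eb1 and H2-DMb2 to Cd74 in the aged (filled red) and young (open blue) libraries (circle, square, triangle and diamond for replicates 1 to 4), with mean and SD beside the points. The 3 pairs were picked from the 14 whose ratios did not overlap, so that the aged points lie wholly above or wholly below the young ones.

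The other genes of the class II pathway were 26, of which 25 were tested: the CIITA, RFX and NF-Y factors, lysosomal proteases, the ubiquitin ligases of class II, costimulatory molecules and the receptors that bind class II. Of these, 2 were DEGs, beside 16.7% of all genes tested, a difference that was not tested. Both were higher in aged isolates, 0 were lower, 5 had an unadjusted P value under 0.05 (32.7% of all genes did), and the median log2 fold change was 0.05. With the replicate number as a block, 1 of the 25 was called, beside 292 of all 13904 genes tested. Ciita, the coactivator of the class II genes, had 51.6, 39.6 and 78.0 CPM in aged and 87.1, 51.6, 64.4 and 94.8 CPM in young isolates. It did not pass the test, with a log2 difference of -0.40 and a standard error of 0.27 (adjusted P = 0.345, edgeR), and its lowest library was aged replicate 2, where the class II genes lay in the middle. Lag3, an inhibitory receptor that binds class II molecules, rose from 25.2 ± 4.87 CPM in young to 149 ± 66.5 CPM in aged isolates, with 124, 98.2 and 224 CPM in the aged libraries and at most 32.1 CPM in the young (log2 fold change 2.56, standard error 0.28, adjusted P = 0.00125, edgeR). Cd86, a costimulatory molecule of antigen-presenting cells, rose from 29.9 ± 4.60 CPM to 50.9 ± 1.09 CPM (log2 fold change 0.77, standard error 0.13, adjusted P = 0.00606, edgeR), and the aged libraries stood at 51.2, 49.6 and 51.7 CPM while those of the class II genes differed. With the replicate number as a block, Cd86 did not pass the test (log2 fold change 0.72, adjusted P = 0.070, edgeR). Cd4, the receptor of the isolated cells for class II, had 446, 434 and 443 CPM in aged and 542, 633, 493 and 511 CPM in young isolates and did not pass the test (adjusted P = 0.117, edgeR).

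Markers of cells that make class II were read in every library. The 12 B cell markers summed to 1225, 1708 and 2254 CPM in aged and to 2236, 1727, 1988 and 2710.0 CPM in young isolates, beside 2604, 4045 and 5622 CPM and 4214, 3542, 3288 and 4933 CPM for the 10 class II genes. Both sums have aged replicate 1 lowest, aged replicate 3 highest of the aged and young replicate 4 highest of the young. Elsewhere the orders differ: the highest B cell sum was in young replicate 4 and the highest class II sum in aged replicate 3, and the lowest young library was replicate 2 for B cells and replicate 3 for class II. Of the B cell markers 1 was lower (Fcrla) and 0 were higher, beside 16.7% of all genes called in either direction. Their median log2 fold change was -0.45, 3 of the 12 values were positive and 5 had an unadjusted P value under 0.05, beside 32.7% of all genes, and Cd79a and Cd79b of the B cell receptor, the most abundant pair, did not pass the test. Cd79a had 161, 299 and 354 CPM in aged and 349.9, 319, 324 and 437 CPM in young isolates. Per kilobase, Cd79a had a median of 222 CPM, beside 104 for Foxp3 and 122 for Cd4.

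The sum of monocyte and macrophage markers also differed from the class II sum in the order of libraries. The 17 monocyte and macrophage markers summed to 783, 531 and 670.3 CPM in aged and to 639, 734, 767 and 727 CPM in young isolates, with aged replicate 1, the lowest library of class II, the highest. Single markers were divided: 8 of the 17, C1qa, C1qb, C1qc and Csf1r among them, had aged replicate 1 lowest and aged replicate 3 highest of the aged as the class II genes did. Others, Lyz2 (369 CPM), Ly6c2 (108 CPM) and Ccr2 among them, were highest in aged replicate 1. That library also had the most neutrophil marker reads, and a link between these was not tested. Of the 17 markers, 1 was higher (Cd14) and 5 were lower (Csf1r, Adgre1, Vcam1, Cd163 and Mrc1) in aged isolates, again beside 16.7% of all genes, as for the dendritic lists that follow. Csf1r, the receptor that macrophages need, fell by 1.12 on the log2 scale (adjusted P = 0.0031, edgeR), from 92.7 ± 3.30 to 42.7 ± 10.8 CPM, and Lyz2 did not pass the test. The 8 conventional dendritic cell markers summed to 44.5 to 64.9 CPM in aged and 59.5 to 77.5 CPM in young isolates, with aged replicate 3 the highest of the aged, whereas young replicates 3 and 4 were level (77.2 and 77.5 CPM) and young replicate 3 had the lowest class II sum of the young. In this list 1 gene was higher (Zbtb46) and 2 were lower (Clec9a and Cd209a) in aged isolates, while Itgax and Flt3, more abundant, did not pass the test. Of 4 plasmacytoid dendritic cell markers tested, 2 were lower (Siglech and Ccr9) and 0 higher, and the sums of the list of 5 were 81.9 to 123 CPM and 98.2 to 113 CPM. No marker of these lists was at 0 in all 7 libraries. What part RNA of these cells has in the class II reads was not tested.

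**Figure D4:**
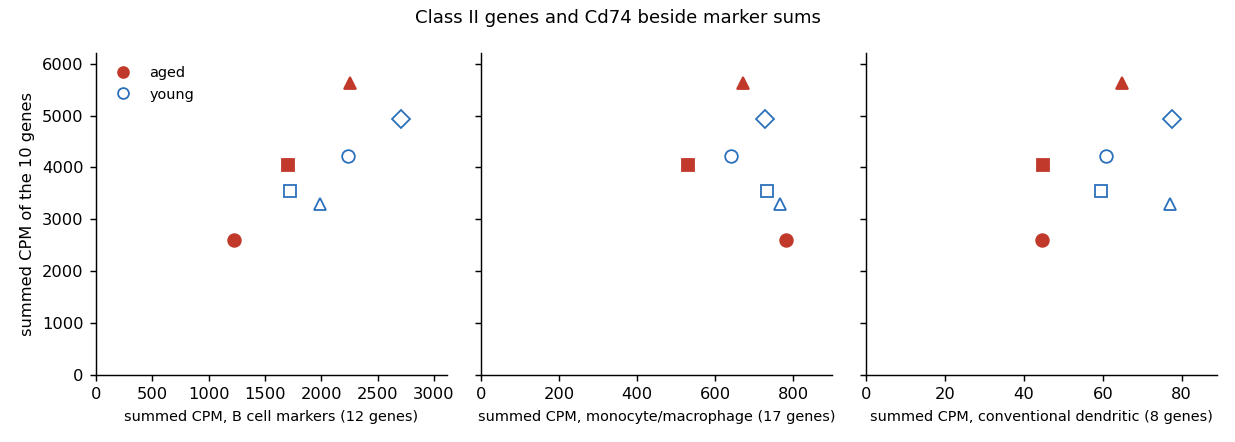
Summed CPM of the 10 class II genes (vertical) against the summed CPM of B cell, monocyte and macrophage, and conventional dendritic cell markers (horizontal), 1 point per library, aged filled red and young open blue (circle, square, triangle and diamond for replicates 1 to 4). Aged replicate 1 has the lowest class II and B cell sums and the highest monocyte and macrophage sum, and aged replicate 3 the highest class II sum.

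Measured against the B cell marker sum, the class II sum was higher in every aged library than in any young one. It was 2.13, 2.37 and 2.49 times the B cell marker sum in aged and 1.88, 2.05, 1.65 and 1.82 times in young isolates. Taken marker by marker, the class II sum did not overlap between ages for 6 of the 12 (Ms4a1, Cd79a, Cd79b, Ebf1, Fcer2a and Fcrla) and overlapped for the other 6 (among them Blk, Cd22, Cr2, Bank1 and Pax5), so that the choice of marker decides whether the ages separate. Over 9416 other well-read genes, the ratio of the class II sum to 1 gene did not overlap between ages for 5.14% and was higher in every aged library for 1.5%. The 12 ratios share their numerator and are not separate results. Against the monocyte and macrophage sum the class II sum was 3.33, 7.62 and 8.39 times in aged and 6.59, 4.83, 4.29 and 6.79 times in young isolates, which overlap. The ratios to the dendritic, plasma cell and Treg lists overlapped too.

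The profile of each gene over the 7 libraries, log2 CPM less its own mean, was set beside the mean profile of H2-Aa, H2-Ab1, H2-Eb1 and Cd74. The mean profile was -0.60 in aged replicate 1, 0.55 in aged replicate 3 and 0.32 in young replicate 4, and likeness was the root mean square difference over 7 libraries, on which a flat profile scores 0.35. Among 9426 well-read genes, the 8 closest genes outside the class II group included Ly86 (0.12), Blk (0.12), Kctd12 (0.13), Haao (0.13), Cd38 (0.13), Ighd (0.14) and Anpep (0.15). Blk is a kinase of B cells, Ighd the constant part of IgD, and Ly86 the partner of the B cell and myeloid receptor RP105. The 12 B cell markers were divided: their ranks ran from 9 (Blk) to 8003 (Fcer2a). Cd22 stood at 35, Bank1 at 120, Cd79a at 137, Cd79b at 778 and Cr2 at 1392, whereas Ms4a1 stood at 2689, Pax5 at 4826, Ebf1 at 5791 and Fcrla at 5836. The 14 monocyte and macrophage markers among the well-read genes ranked from 405 to 9213, and the 3 conventional dendritic cell markers among them were Flt3 at 747, Itgax at 7404 and Zbtb46 at 8187. Of the class II genes outside the mean, H2-DMb2 ranked 4, H2-DMa 6, H2-Ob 8, H2-Oa 16, H2-DMb1 21 and H2-Eb2 67, so that H2-Eb2 followed the others least. With profiles centred within each age, the 5 closest were Fcmr, Scd1, Carns1, Tbc1d9 and Blk, at 0.08 to 0.09. In that centring the B cell markers ranked from 12 to 1511 and the monocyte and macrophage markers from 153 to 9282. The likeness is a description of 7 libraries that share their depth and composition for every gene.

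**Figure D5:**
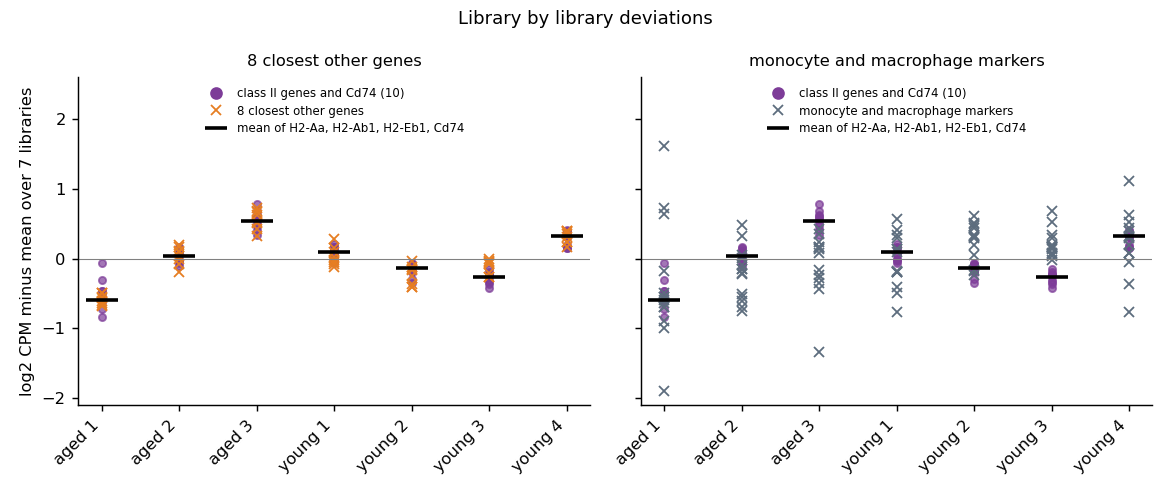
Log2 CPM minus the mean over the 7 libraries for the 10 class II genes (purple) with the 8 closest other genes (left, orange crosses) and with the monocyte and macrophage markers (right, grey crosses), and the mean of H2-Aa, H2-Ab1, H2-Eb1 and Cd74 (black line). The orange genes were picked as the closest to the black line, which runs from -0.60 in aged replicate 1 to 0.55 in aged replicate 3, and the grey ones were not picked by profile.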

How the data were processed

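RNA of 7 isolates had been made into cDNA with the SMART-Seq v4 kit, which carries no molecular identifiers. The authors deposited raw read counts per Ensembl gene for each library, in the layout of HTSeq-count (union mode, without strand), and a series table of signal values, each a count divided by 1 size factor per library. The deposited signal equalled the count over a constant within 0.1% in 100% of genes, so the counts were analysed. The authors' fold changes and P values in that table were not used. The aligner and annotation are not given in the sources used here. The build, by the submitters' processing notes, is mm10. Reads that fell outside genes or on more than 1 gene (13.1% to 20.9%) were left out. Coordinates and exon lengths are those of GENCODE M21 (GRCm38), and symbols come from the deposited table, with 2 ligases that it lists as dates matched by identifier (March1 and March8).

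All 7 libraries entered 1 fit without covariates, with TMM scaling, a filter by filterByExpr and the quasi-likelihood test of edgeR 4.0.16 (R 4.3.3), and Benjamini-Hochberg adjustment ran over 13904 genes. The study's methods name limma, so limma voom (limma 3.58.1) was an alternative, as were DESeq2 1.42.0, other scalings and filters, GC content and length trends removed, a replicate block and each library left out in turn. The pair ratios without these trends, and the order of the aged libraries by library size or by the deposited size factors, were added after the data were seen. CPM of 3 counts was 0.21 to 0.302. Standard errors and 95% intervals were derived from the quasi-likelihood test and include the spread between libraries of an age. The scripts were tested on simulated data. No 2 libraries of an age agreed within sampling noise (chi-square per degree of freedom of 8.16 or more).

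The members and gene lists were chosen with earlier results of these data known. The named genes are the 10 members, Ciita and every DEG of the pathway list, the 3 most abundant B cell, dendritic and macrophage markers, Foxp3, Cd4 and Il2ra, and the genes closest in profile. Other markers named were chosen after their values were seen. Results for 1 gene that this rule names are not reported here.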

Additional observations from a re-analysis of the deposited data

Results flagged for a closer look

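In the 4 young libraries, 1 library lay far from the rest in 2 marker sums. For the plasma cell markers, the gap between young replicate 2 (2003 CPM) and the next young library was 0.897 of the whole range, and for the T cell markers (2423 CPM) it was 0.848, both above the 95% critical value of Dixon's test for 4 samples. Chance alone passes this value in about 1 in 20 groups. None of the 10 class II genes passed it, and their summed CPM in young replicate 2 (3542) lay between those of the other young libraries.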

How the results depend on the processing

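None of the 10 class II genes was a DEG in any of the 16 alternative fits. The sign of 8 of their fold changes depended on single libraries. With each library left out in turn, the log2 fold change ran from -0.17 to 0.45 for H2-Aa, -0.40 to 0.19 for H2-Ab1, -0.16 to 0.36 for H2-Eb1, -0.21 to 0.36 for H2-DMa, -0.27 to 0.49 for H2-DMb1, -0.10 to 0.41 for H2-DMb2, -0.43 to 0.025 for H2-Ob and -0.31 to 0.17 for Cd74. The values under 0 of H2-Aa, H2-Eb1, H2-DMa, H2-DMb1 and H2-DMb2 came without aged replicate 3, and the values over 0 of H2-Ab1, H2-Ob and Cd74 without aged replicate 1 (for H2-Ab1 and Cd74 also without young replicate 4, at 0.06 and 0.08). H2-Eb2 (0.01 to 0.30) and H2-Oa (0.03 to 0.49) stayed positive in all 16. With GC content and gene length trends removed, H2-Eb1 stood at -0.036, H2-DMb1 at -0.034 and H2-DMb2 at -0.019, and 4 pathway genes were called instead of 2. That fit moved the median of all genes from 0.02 to -0.07. The cause was not tested.

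The replicate numbers did not pair the libraries (correlations of same-numbered deviations -0.09, -0.29 and -0.14). With the replicate number as a block, Cd74 stood at 0.033, Cd86 at 0.72 (adjusted P = 0.070, edgeR, from 0.77), the pathway count fell to 1, the antigen-presenting cell markers called went from 12 to 3 and all DEGs from 2327 to 292. Leaving out a library gave 2 to 3 pathway genes, 10 to 15 markers and 1237 to 3058 DEGs. The lowest count of any class II gene was 225 reads (H2-DMb1 in aged replicate 1).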

Other observations

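March8, a ubiquitin ligase that acts on class II molecules, varied widely between libraries, and so did haemoglobin reads. It had 33.6, 209 and 87.3 CPM in aged and 182, 16.2, 109 and 155 CPM in young isolates, where 4 haemoglobin genes took 1.27%, 13.1% and 7.60% and 10.4%, 1.24%, 6.15% and 5.91% of the gene counts. The highest March8 library, aged replicate 2, had the most haemoglobin, and the lowest, young replicate 2, the least. The class II genes had another order, with aged replicate 2 in the middle.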
